A study of Drosophila melanogaster with 18 samples.

Results

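The Bomanins are a family of small peptides that Drosophila secretes into the hemolymph, and 10 of their genes are described here out of the 17494 genes in the count tables. The members were taken by their FlyBase symbols, and they had been selected on their levels in these same libraries, so their levels, differences and calls in the RNA comparisons are a description and support nothing further. They comprise the 5 short Bomanins BomS1, BomS2, BomS3, BomS5 and BomS6, the 3 tailed Bomanins BomT1, BomT2 and BomT3, and the bicipital Bomanins BomBc1 and BomBc2.

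RNA-seq was carried out on fat bodies of larvae in the third instar reared at 25 °C, with 2 libraries per group and RNA isolated from 10 fat bodies per preparation in the males. The male larvae were at the feeding stage (L3F), had their gonads removed and all carried the cgGal4 driver, which was crossed to wild type (WT), to M1BP RNAi, to the vertebrate zinc finger protein ZKSCAN3 (HA::ZKSCAN3 in the labels), or to M1BP RNAi together with ZKSCAN3 (M1BP RNAi + ZKSCAN3). The cgGal4 driver is active in the fat body and also in blood cells (hemocytes), so a bulk fat body library can hold RNA of other cells that express the transgenes. Wild type female larvae were sampled at L3F and at the wandering stage (L3W), without a driver. ZKSCAN3 and its paralogue ZKSCAN4, both HA-tagged, were mapped by ChIP-seq in stably transfected S2 cells, an embryo-derived line, with copper used to induce them; the genotype label of ZKSCAN3 ChIP replicate 2 names HA::ZKSCAN4, against its title and cell line label, and the peaks used were merged over replicates. The question behind the male genotypes was whether ZKSCAN3 can stand in for M1BP, a transcription factor that binds the promoter element Motif 1.

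Bomanins are effectors of the Toll pathway, the arm of fly innate immunity that answers fungi and Gram-positive bacteria. In that pathway the serine protease SPE cleaves the cytokine Spätzle (spz), which binds the receptor Toll (Tl); the adaptors Myd88 and tube and the kinase pelle (pll) then lead to loss of the inhibitor cactus (cact) and to nuclear entry of the NF-κB factors Dif and dorsal (dl). The fat body is the main site where these factors switch on secreted peptides. A short Bomanin carries a single copy of a conserved motif with a cysteine pair, a tailed Bomanin has a further stretch after it, and a bicipital Bomanin has a pair of motifs joined by a linker.

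The annotated genes lie at 2 places in the genome (dm6). BomT3 lies at chr3R:22085374-22086397 on the minus strand, head to head with BomBc3 at chr3R:22087075-22088501 on the plus strand, a bicipital Bomanin that is outside the 10. Their starts are separated by 677 bases. The 250 bases before each annotated start are shown, because BomT3 and BomBc3 share the 677 bases between them and differed in level. The windows do not overlap, and the bases between the windows were neither shown nor searched. Capitals mark the match to a GATA type motif in BomT3 and to an NF-κB type motif in BomBc3, and both sequences are from the RefSeq genome of this build.

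BomT3, chr3R:22086398-22086647, minus strand: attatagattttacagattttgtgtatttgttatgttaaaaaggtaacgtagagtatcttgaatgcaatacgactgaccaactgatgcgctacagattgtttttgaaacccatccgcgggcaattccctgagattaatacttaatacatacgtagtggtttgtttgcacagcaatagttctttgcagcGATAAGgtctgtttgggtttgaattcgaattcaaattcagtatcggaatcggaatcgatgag
BomBc3, chr3R:22086825-22087074, plus strand: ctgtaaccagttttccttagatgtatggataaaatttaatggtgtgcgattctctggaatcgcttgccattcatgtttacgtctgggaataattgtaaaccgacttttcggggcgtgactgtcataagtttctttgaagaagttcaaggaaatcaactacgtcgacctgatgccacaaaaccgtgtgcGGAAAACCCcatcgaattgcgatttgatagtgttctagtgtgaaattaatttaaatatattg

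The other 9 members lie within 9.24 kb at chr2R:18381393-18390629, in the order BomT1, BomBc1, BomS1, BomBc2, BomS2, BomS3, BomT2, BomS5 and BomS6. The only other gene of the count table within this span is BomS4, a short Bomanin outside the 10.

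The libraries held 53462739 to 76798943 counts in males and 58313885 to 74175081 counts in females, of which the 10 most abundant genes took 34.7% to 52.7%. Levels are given as CPM (the usual per-million scale, with library totals scaled by TMM factors) and as TPM, which also corrects for gene length and is used to compare genes. A gene with no read could have been at up to 3 counts, which was 0.0305 to 0.0590 CPM depending on the library; this limit and the intervals below cover counting error only. M1BP was at 15.7 and 17.0 CPM in WT and at 6.57 and 7.02 CPM in M1BP RNAi (edgeR FDR 0.00776, log2 fold change −1.27, SE 0.14), and at 8.25 and 8.52 CPM in M1BP RNAi + ZKSCAN3. All 8 fat body markers had reads in every library, with a summed level of 187332 to 439830 CPM. In these bulk samples fewer cells of a type and less RNA per cell cannot be told apart.

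In WT males the Bomanin genes were nearly silent, in M1BP RNAi most of them were clearly present, and in M1BP RNAi + ZKSCAN3 all 10 were at their highest. The summed level of the 10 genes was 1.63 and 1.93 CPM in WT, 19.3 and 18.5 CPM under M1BP RNAi, 0.283 and 2.77 CPM in ZKSCAN3, and 136 and 174 CPM in M1BP RNAi + ZKSCAN3. The mean sum was thus 10.6-fold higher in M1BP RNAi than in WT, and the addition of ZKSCAN3 to M1BP RNAi brought a further 8.20-fold. Every member was higher in both M1BP RNAi + ZKSCAN3 libraries than in all 6 other male libraries. The expression of ZKSCAN3 without the RNAi left the sum at 1.52 CPM ± 1.76 (SD, n = 2) against 1.78 CPM ± 0.211 (SD, n = 2) in WT, and its replicates differed widely, with 16 counts over the 10 genes in replicate 1 and 144 in replicate 2.

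**Figure D1:**
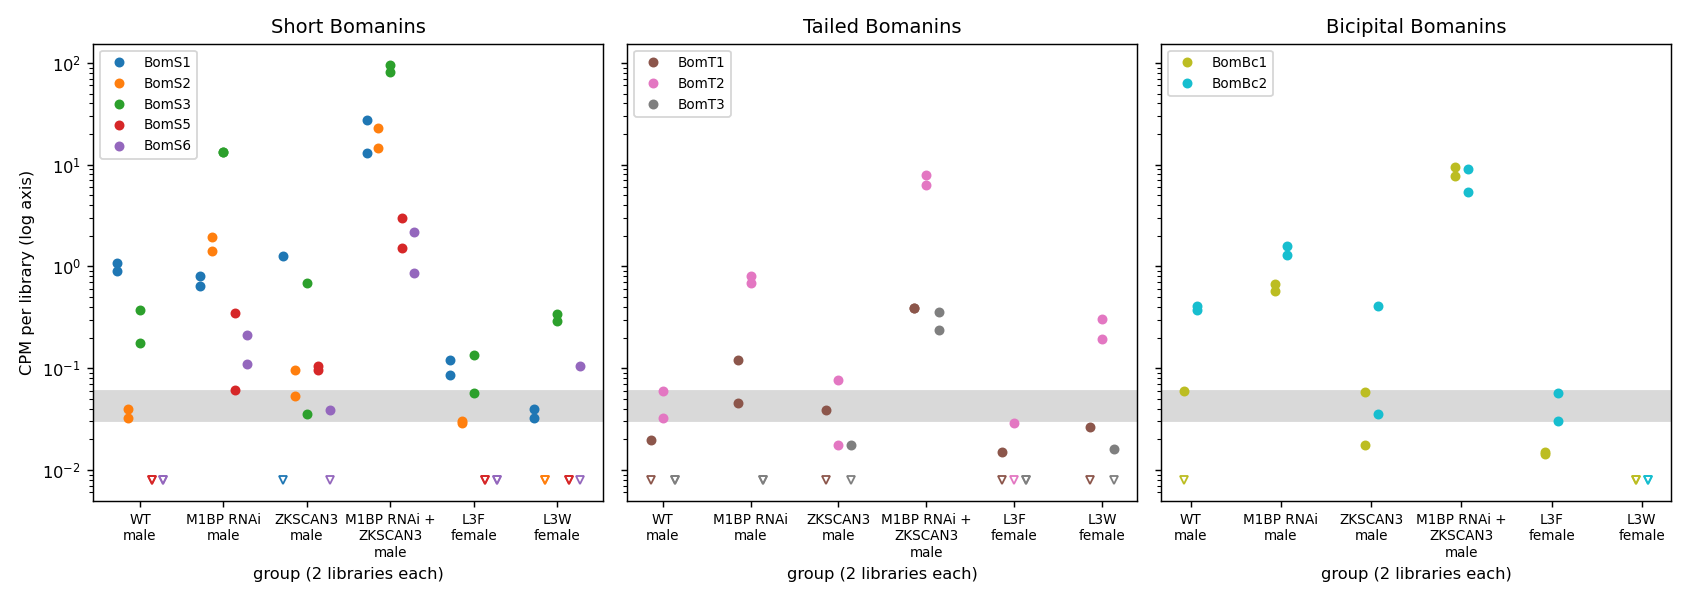
Level of each Bomanin gene in every library, in CPM on a log axis, by class and by group (2 libraries each). Points are libraries, open triangles at the bottom are libraries with no read, and the grey band is the range of 3 counts per library (0.0305 to 0.0590 CPM). All 10 genes are highest in M1BP RNAi + ZKSCAN3, where BomS3 reaches 81.1 and 95.9 CPM.

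Among the short Bomanins, BomS3 was the most abundant member in both genotypes with M1BP RNAi. It stood at 0.177 and 0.373 CPM in WT, 13.3 and 13.2 CPM under M1BP RNAi, 0.0353 and 0.692 CPM with ZKSCAN3 alone and 81.1 and 95.9 CPM in M1BP RNAi + ZKSCAN3. The WT and ZKSCAN3 libraries overlapped, and the other genotypes each stood apart. In pooled counts BomS3 was 46.5-fold higher in M1BP RNAi than in WT (95% exact counting interval 32.8 to 68.2) and 6.77-fold higher again when ZKSCAN3 was added (6.46 to 7.10).

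BomS2 followed the same steps from a lower start. It had 2 and 2 counts in WT, 128 and 118 under M1BP RNAi, 3 and 5 with ZKSCAN3 alone and 1037 and 2262 under M1BP RNAi + ZKSCAN3. Its libraries did not overlap between any of the 4 genotypes. The ratio of pooled counts was 46.6 for M1BP RNAi over WT (17.95 to 172) and 11.7 for M1BP RNAi + ZKSCAN3 over M1BP RNAi (10.3 to 13.4).

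BomS1, whose peptide is the nearest relative of BomS2, was the exception among the members with reads in M1BP RNAi. It was the most abundant Bomanin of the WT libraries, with 0.905 and 1.09 CPM, and it was no higher in M1BP RNAi, with 0.636 and 0.801 CPM. It had no read in ZKSCAN3 replicate 1 and 1.27 CPM in replicate 2, and it reached 13 and 27.7 CPM in M1BP RNAi + ZKSCAN3. In CPM both WT libraries were therefore above both M1BP RNAi libraries (pooled ratio 0.723, 0.551 to 0.95). In TPM the groups overlapped, where WT was at 3.95 and 4.45 TPM and M1BP RNAi at 3.98 and 4.26 TPM, so the lower level in M1BP RNAi holds on the CPM scale alone. In pooled counts M1BP RNAi + ZKSCAN3 was 29.6-fold above M1BP RNAi (24.4 to 36.2), the largest such ratio with reads in both genotypes. BomS1 made up 67.7% and 71.0% of the summed Bomanin TPM in WT, 5.57% and 7.26% in M1BP RNAi and 14.5% and 23.3% in M1BP RNAi + ZKSCAN3.

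BomS5 and BomS6 sit beside each other at the end of the cluster, on opposite strands, and neither had a read in WT. BomS5 had 4 and 29 counts in M1BP RNAi, 6 and 5 with ZKSCAN3 alone and 109 and 295 under M1BP RNAi + ZKSCAN3. BomS6 had 14 and 9 counts in M1BP RNAi, 0 and 2 with ZKSCAN3 alone and 155 and 84 under M1BP RNAi + ZKSCAN3. Against a limit of 3 counts over the WT libraries, BomS5 was at least 8.33-fold higher in M1BP RNAi and at least 89.0-fold higher in M1BP RNAi + ZKSCAN3. BomS6 was at least 5.80-fold and at least 52.6-fold higher. The M1BP RNAi + ZKSCAN3 replicates went opposite ways for this pair: replicate 2 was 1.98 times replicate 1 in CPM for BomS5 and 0.396 times for BomS6.

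Of the tailed Bomanins, BomT2 was well above its relatives. It stood at 0.0590 and 0.0325 CPM in WT, 0.802 and 0.679 CPM under M1BP RNAi, 0.0177 and 0.0769 CPM with ZKSCAN3 alone and 7.98 and 6.36 CPM in M1BP RNAi + ZKSCAN3. The WT and ZKSCAN3 libraries overlapped at a few reads each. Pooled counts were 16.5-fold higher in M1BP RNAi than in WT (6.86 to 51.8) and 9.59-fold higher again with ZKSCAN3 (7.88 to 11.8).

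BomT1 stayed low throughout, with 1 and 0 counts in WT, 3 and 10 under M1BP RNAi, 0 and 2 with ZKSCAN3 alone and 28 and 38 under M1BP RNAi + ZKSCAN3. Its pooled ratio of M1BP RNAi to WT was 9.84, with a counting interval of 1.48 to 418 that leaves the size of the difference undetermined. BomT3, the member on chromosome arm 3R, had no read in WT or M1BP RNAi, 1 and 0 counts in ZKSCAN3, and 17 and 35 counts in M1BP RNAi + ZKSCAN3. Its level in the combined genotype was at least 15.1-fold above M1BP RNAi.

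The bicipital Bomanins differed in their ground level. BomBc1 had 3 and 0 counts in WT, 44 and 47 under M1BP RNAi, 1 and 3 with ZKSCAN3 alone and 686 and 761 under M1BP RNAi + ZKSCAN3. The ratio of pooled counts was 23.0 for M1BP RNAi over WT (7.61 to 113) and 13.9 for M1BP RNAi + ZKSCAN3 over M1BP RNAi (11.2 to 17.3). BomBc2 had 19 and 25 counts in WT, 105 and 107 under M1BP RNAi, 2 and 21 with ZKSCAN3 alone and 389 and 894 under M1BP RNAi + ZKSCAN3. With more reads in WT its ratios were smaller, 3.65 (2.63 to 5.17) and 5.28 (4.56 to 6.14). BomBc2 shares 88 bases of exon with BomS4 on the opposite strand, and the counting did not use strand, so reads in that stretch were counted for both.

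The Bomanin genes just outside the 10 behaved less uniformly. BomS4 had 29 and 31 counts in WT, 8 and 17 under M1BP RNAi, 1 and 35 with ZKSCAN3 alone and 65 and 211 under M1BP RNAi + ZKSCAN3, so that M1BP RNAi lay below WT. BomBc3 had 0 and 0 counts in WT, 0 and 4 under M1BP RNAi, 4 and 1 with ZKSCAN3 alone and 4 and 5 under M1BP RNAi + ZKSCAN3. Its head-to-head neighbour BomT3 had 52 pooled counts in M1BP RNAi + ZKSCAN3, against 9 for BomBc3, over a gene with fewer exonic bases (657 against 1301).

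**Figure D2:**
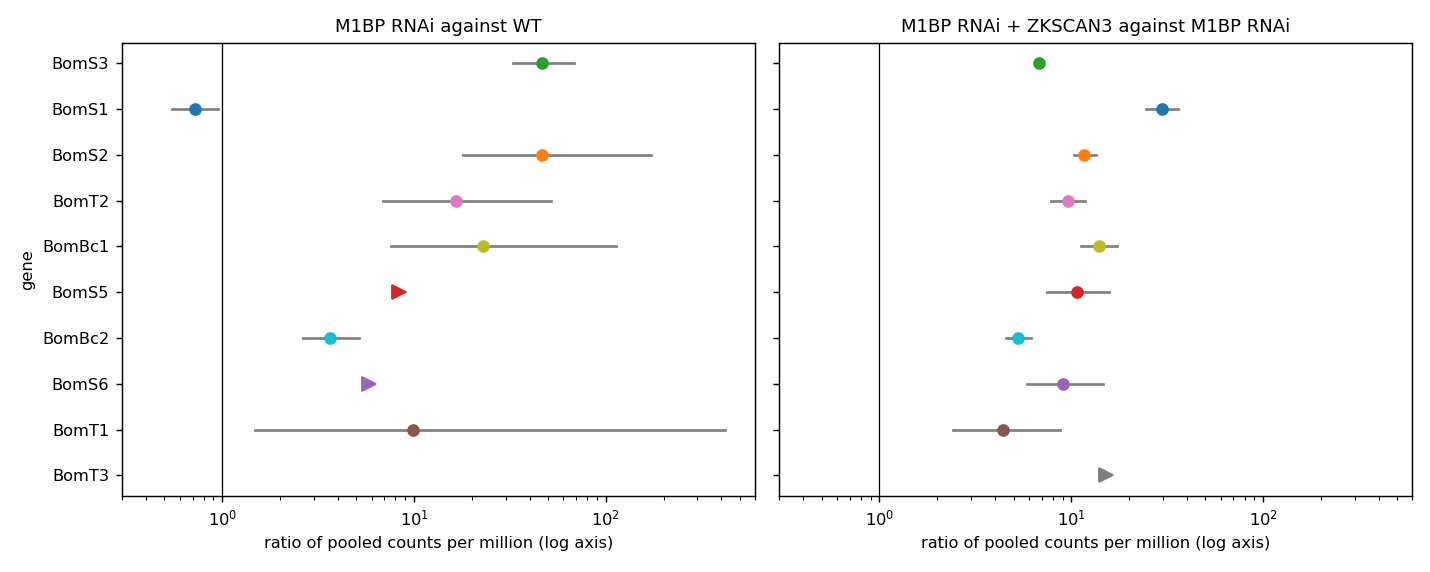
Ratio of pooled CPM between genotypes for each Bomanin gene, on a log axis, for M1BP RNAi against WT (left) and M1BP RNAi + ZKSCAN3 against M1BP RNAi (right). Points are ratios, lines are 95% exact counting intervals, triangles are lower limits against a group with no read (3 counts), and the vertical line is equal level. BomS1 lies at 0.723 on the left and at 29.6 on the right, and BomT3 has no ratio on the left because neither group had a read.

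Per unit of length, the order of the members in M1BP RNAi + ZKSCAN3 was led by BomS3 with 248 TPM ± 48.0 (SD, n = 2), followed by BomS1 with 124 TPM ± 71.0 and BomS2 with 111 TPM ± 43.9. BomT2 with 39.9 TPM ± 3.33 and BomBc1 with 39.4 TPM ± 2.82 came next, then BomS5 with 22.6 TPM ± 12, BomBc2 with 22.2 TPM ± 9.54 and BomS6 with 15.9 TPM ± 8.74, and at the end BomT1 with 2.14 TPM ± 0.152 and BomT3 with 0.979 TPM ± 0.350. The replicates of neighbours overlapped between BomS1 and BomS2, BomT2 and BomBc1, BomS5 and BomBc2, and BomBc2 and BomS6, so these pairs were not separated. In M1BP RNAi BomS3 again led with 36.0 TPM ± 4.48, ahead of BomS2 with 9.70 TPM ± 3.13. In WT BomS1 with 4.20 TPM ± 0.353 led, BomBc2 with 0.836 TPM ± 0.0103 came next and BomS3 with 0.540 TPM ± 0.25 followed. Short Bomanins held 76.9% to 84.5% of the summed TPM in WT, 81.4% to 83.2% in M1BP RNAi and 79.8% to 85.6% in M1BP RNAi + ZKSCAN3. Over these male genotypes the share of the class varied little while the leading gene changed from BomS1 to BomS3. In the female L3W libraries, at few reads, the share was 46.8% and 55.9%.

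**Figure D3:**
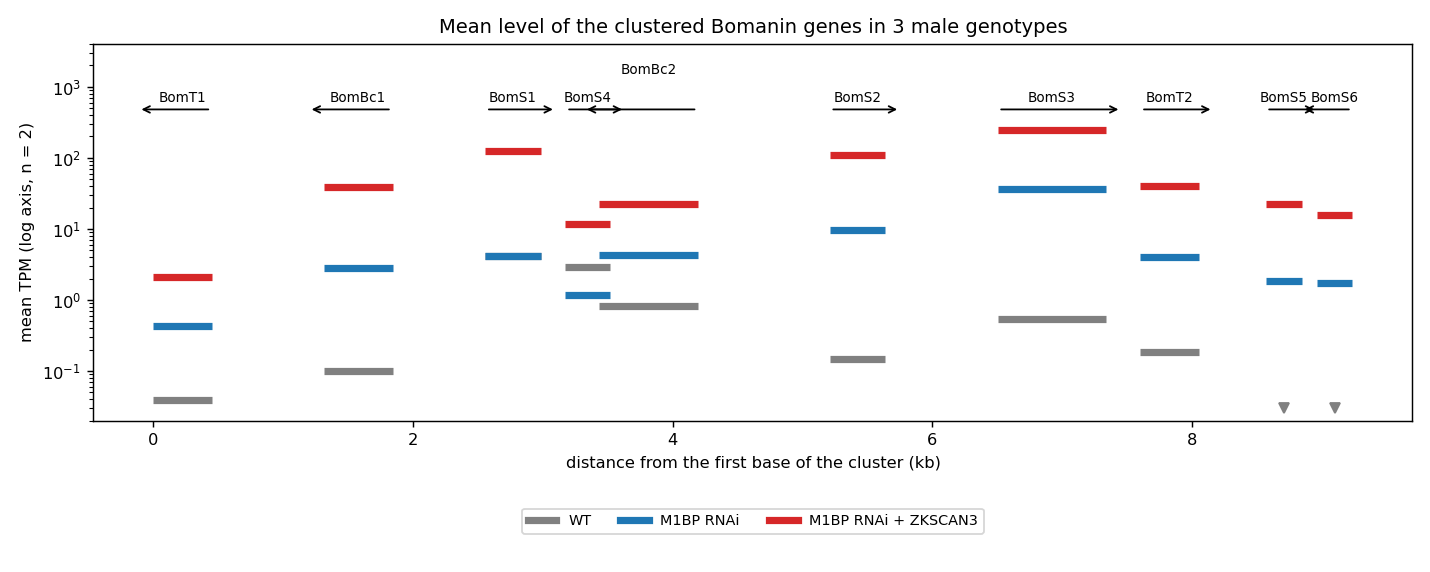
Mean TPM (log axis, n = 2) of the 9 clustered members and of BomS4 in WT, M1BP RNAi and M1BP RNAi + ZKSCAN3, drawn over each gene's extent as distance from the first base of the cluster; arrows give the direction of transcription and grey triangles mark genes with no read in WT. For BomS1 the WT level (4.20 TPM) is nearly the same as that in M1BP RNAi (4.12 TPM), whose bar covers it, and for BomS4 WT lies above M1BP RNAi.

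Read against the whole transcriptome, few of these differences passed a threshold with 2 libraries per genotype. Genes were tested with edgeR's quasi-likelihood test and Benjamini-Hochberg adjustment over 11723 genes, and all 10 members passed the filter on low counts. Of these, 4 (BomS5, BomS6, BomT1 and BomT3) passed it only through the M1BP RNAi + ZKSCAN3 libraries, the group in which they were high, so their calls in that group rest on the same values that kept them in the test. The male comparisons share libraries and are not independent of each other. In M1BP RNAi against WT 0 members were called at an FDR of 0.001, the threshold of the study, where 0.0341% of all genes were called higher (edgeR); 6 members were higher at an unadjusted p under 0.05, beside 15.5% of all genes, and DESeq2 with all male libraries called 4 higher at 0.001, beside 3.69%. At an FDR of 0.05 edgeR called 4 members higher, BomS2 (log2 fold change 5.49, SE 0.45, FDR 0.00397), BomS3 (5.55, SE 0.90, FDR 0.0218), BomT2 (3.99, SE 0.60, FDR 0.0178) and BomBc1 (4.4, SE 0.91, FDR 0.0404), beside 3.93% of all genes. The groups did not overlap, with M1BP RNAi higher, for 8 members, beside 34.1% of all genes. The median over the 10 members was 4.19 on the log2 scale as fitted and 3.30 over the 9 members with a ratio or a lower limit, beside 0.11 over all genes. Every member call at 0.05 was lost without WT replicate 1 or without WT replicate 2, where very few genes were called in all. Without M1BP RNAi replicate 1 the calls of BomS3, BomT2 and BomBc1 were lost. With a library left out the median log2 fold change ran from 3.48 to 5.36.

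In M1BP RNAi + ZKSCAN3 against WT edgeR called 0 members at an FDR of 0.001, beside 0% of all genes; all 10 members were higher at an unadjusted p under 0.05, beside 12.5% of all genes, and DESeq2 with all male libraries called 7 higher at 0.001, beside 3.66%. At an FDR of 0.05 it called 7 members higher, beside 3.23% of all genes, namely BomS2, BomS3, BomS5, BomS6, BomT2, BomBc1 and BomBc2. Among the 6 members that passed the filter without the combined genotype, 5 were called. BomS2 had the smallest FDR of them (log2 fold change 8.96, SE 0.48, FDR 0.00264). BomS1 (4.35, SE 1.34, FDR 0.118), BomT1 (5.14, SE 1.6, FDR 0.119) and BomT3 (FDR 0.110) did not pass. All 10 members were higher without overlap, beside 28.4% of all genes. The median was 7.77 as fitted and 6.10 with the genes at 0 in WT set to their lower limits, beside 0.01 over all genes. Every member call at 0.05 was lost without WT replicate 1 or WT replicate 2, where very few genes were called in all. Without M1BP RNAi + ZKSCAN3 replicate 1 BomS6 and BomBc2 were lost. Without its replicate 2 BomS5, BomS6, BomBc1 and BomBc2 were lost. With a library left out the median log2 fold change ran from 7.26 to 7.83.

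The further difference between M1BP RNAi + ZKSCAN3 and M1BP RNAi was called for BomS2 alone at an FDR of 0.05 (log2 fold change 3.48, SE 0.33, FDR 0.0219, edgeR), beside 0.111% of all genes. At 0.001 edgeR called 0 members and 0% of genes, 9 members were higher at an unadjusted p under 0.05, beside 8.97% of all genes, and DESeq2 with all male libraries called 3 higher, beside 1.21%. All 10 members were higher without overlap, beside 22.8% of all genes, and the median was 3.35 as fitted and 3.34 with BomT3 at its lower limit, beside −0.08 over all genes. Among members with reads in both genotypes the fitted values ran from 2.18 for BomT1 to 4.82 for BomS1. The call of BomS2 was lost when either M1BP RNAi library or replicate 2 of the combined genotype was left out.

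Against ZKSCAN3 expressed without the RNAi, M1BP RNAi + ZKSCAN3 was higher at an FDR of 0.05 for BomS2, BomS3, BomT2, BomBc1 and BomBc2 (5 members by edgeR, beside 2.80% of all genes). At 0.001 the count was 0 by edgeR, beside 0% of all genes, with 10 members higher at an unadjusted p under 0.05, beside 13.9%, and 6 called higher by DESeq2 with all male libraries, beside 3.58%. All 10 members were higher without overlap, beside 27.0% of all genes. Without M1BP RNAi + ZKSCAN3 replicate 2 the calls of BomS3, BomBc1 and BomBc2 were lost. With a library left out the median log2 fold change ran from 5.43 to 8.48. BomBc1 was not called without either ZKSCAN3 library, and BomS1 was called without ZKSCAN3 replicate 2.

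For ZKSCAN3 against WT edgeR called 0 members at an FDR of 0.001 or 0.05, beside 0% of all genes at either threshold; 1 member (BomS5) was higher at an unadjusted p under 0.05, beside 1.54%, and DESeq2 with all male libraries called 0 at 0.05, beside 0.196%. Without overlap BomS2 and BomS5 were higher, 2 of 10 members beside 19.2% of all genes. BomS2 had 8 pooled counts against 4 in WT, a ratio of 2.07 with a counting interval of 0.554 to 9.39. The interaction, which asks whether the difference made by ZKSCAN3 was the same with and without M1BP RNAi, was called for 0 members at an FDR of 0.001, beside 0% of all genes, and for 0 at 0.05, beside 0.00853% of all genes (edgeR). A positive interaction at an unadjusted p under 0.05 was found for 4 members, beside 8.45% of all genes, and DESeq2 with all male libraries called 1, BomT2, at 0.05, beside 2.87%. BomS1 had the largest fitted interaction (log2 5.49, SE 1.83, FDR 0.279) and BomT2 the smallest p (3.23, SE 0.88, FDR 0.279), while the fit for BomT3, which had no read in WT or M1BP RNAi, gave no usable error.

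In wild type females the Bomanins were scarce at both stages. The summed level was 0.345 and 0.273 CPM at L3F and 0.533 and 0.818 CPM at L3W, and 8 members had at most 10 counts in every female library. Only BomS3 and BomT2 passed the filter on low counts. BomT2 had 0 and 2 counts at L3F and 12 and 23 at L3W, and BomS3 had 9 and 4 at L3F and 18 and 26 at L3W. Each was higher at L3W without overlap, with pooled ratios of 17.3 (4.45 to 149) for BomT2 and 3.35 (1.77 to 6.78) for BomS3. BomS1, BomS2, BomBc1 and BomBc2 went the other way at very few reads: BomS2 had 2 and 2 counts at L3F and none at L3W, BomBc2 2 and 4 at L3F and none at L3W, BomBc1 1 and 1 and none, and BomS1 8 and 6 against 2 and 3. BomS5 had no read in any female library, BomS6 had 8 counts in L3W replicate 2 alone, BomT1 had at most 2 and BomT3 at most 1. Both tested members were thus higher without overlap, beside 38.6% of the 10720 genes tested. Over all 10 members 2 were higher and 4 lower, beside 26.1% and 27.2% of all 17494 genes; the 4 lower members did not pass the filter and were not tested. edgeR called 0 members at an FDR of 0.001, beside 4.27% of all genes, and 0 at 0.05, beside 23.3%; 1 member was higher at an unadjusted p under 0.05, beside 27.0%, and DESeq2 called 0 at 0.05, beside 25.8% (BomT2 log2 fold change 3.94, SE 1.26, FDR 0.0638, edgeR). Male and female libraries were not compared by a test, since sex, driver and genotype differ between them.

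Other peptides that respond to Toll were followed beside the Bomanins. Drosomycin (Drs), the antifungal peptide used as the standard readout of the pathway, was at 0.394 and 0.162 CPM in WT, 49.4 and 15.2 CPM under M1BP RNAi, 2.53 and 1.81 CPM with ZKSCAN3 alone and 282 and 57.5 CPM in M1BP RNAi + ZKSCAN3. It rose in M1BP RNAi against WT (log2 fold change 6.88, SE 1.1, FDR 0.0231, edgeR). Its replicates in M1BP RNAi + ZKSCAN3 stood in the opposite order to those of the Bomanin sum. At L3W in females Drs was at 73.8 and 89.8 CPM against 1.62 and 0.230 CPM at L3F (log2 fold change 6.47, FDR 0.00862, edgeR), a level above that of either M1BP RNAi library. In the L3W libraries Drs was 138 and 110 times the Bomanin sum, whereas in M1BP RNAi + ZKSCAN3 it was 2.08 and 0.330 times the sum.

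Baramicin A (BaraA1), which is cut into several secreted immune peptides, was at 0.276 and 0.341 CPM in WT, 1.74 and 1.76 CPM in M1BP RNAi and 28.0 and 27.5 CPM in M1BP RNAi + ZKSCAN3. It rose in M1BP RNAi against WT (2.49, SE 0.28, FDR 0.00865, edgeR). The Daisho genes Dso1 and Dso2, which encode short antifungal peptides and are named here after their values were seen, had no read in WT or ZKSCAN3. Dso1 was at 3.93 and 4.30 CPM in M1BP RNAi + ZKSCAN3 and Dso2 at 3.19 and 6.59 CPM. Metchnikowin (Mtk), an antifungal peptide open to both Toll and Imd, stayed at 0 to 0.653 CPM in the males and was at 5.14 and 3.72 CPM at L3W. Among the 8 tested genes of this list, 2 rose in M1BP RNAi against WT at an FDR of 0.05, beside 3.93% of all genes. In M1BP RNAi + ZKSCAN3 against WT 4 rose, beside 3.23%, and 0 were lower in either comparison. The 4 include Dso1 and Dso2, with 6 and 4 counts and 8 and 7 counts in M1BP RNAi. Both passed the filter on low counts only through the M1BP RNAi + ZKSCAN3 libraries, so their calls rest on the same values. The other tested genes passed in neither comparison. The list medians were 2.0 and 3.46 on the log2 scale. IM33 (lower at L3W, log2 −4.20, SE 0.20, FDR 5.81e-04, edgeR) went from 452 and 635 CPM in WT to 81.1 and 208 CPM in M1BP RNAi and 389 and 772 CPM in M1BP RNAi + ZKSCAN3, and so did not follow the Bomanins.

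**Figure D4:**
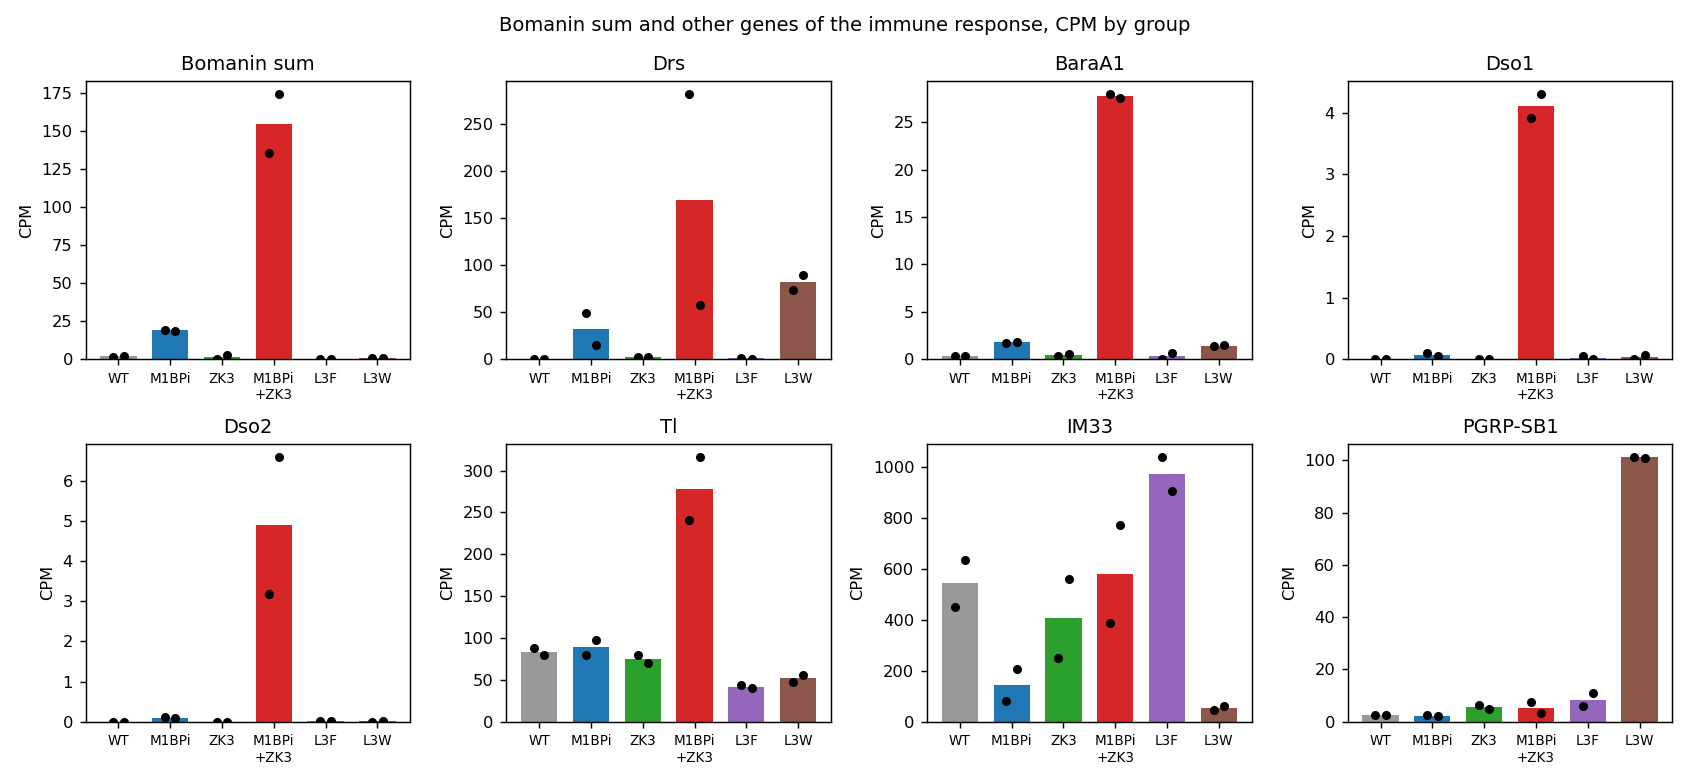
CPM of the Bomanin sum, Drs, BaraA1, Dso1, Dso2, Tl, IM33 and PGRP-SB1 in the 4 male genotypes (WT, M1BPi = M1BP RNAi, ZK3 = ZKSCAN3, M1BPi+ZK3) and in female L3F and L3W. Bars are means of 2 libraries and points are libraries. The Bomanin sum, BaraA1, Dso1 and Dso2 peak in M1BP RNAi + ZKSCAN3, Drs is also high at L3W (73.8 and 89.8 CPM), and PGRP-SB1 is high at L3W only.

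Few genes of the Toll cascade itself passed the test in the males. Of the 10 extracellular components 0 rose and 2 fell in M1BP RNAi against WT at an FDR of 0.05 (list median −0.13): GNBP1, a recognition protein, fell by 1.09 on the log2 scale and grass, a serine protease, fell by 2.07. Of the 9 components from the receptor to the nucleus, 0 passed in that comparison. Over all 11723 genes tested, 964 passed there in either direction, and 733 passed in M1BP RNAi + ZKSCAN3 against WT. In M1BP RNAi + ZKSCAN3 against WT 0 of the extracellular components rose and 1, grass, fell by 1.94 on the log2 scale (FDR 0.0256, edgeR). SPE had the largest fall of that list, by 2.60, but did not pass (FDR 0.0526, edgeR). It was at 42.0 and 41.3 CPM in WT, 10.5 and 38.3 CPM with ZKSCAN3 alone and 6.92 and 6.85 CPM in M1BP RNAi + ZKSCAN3. Of the 9 components from the receptor to the nucleus, 1 rose and 1 fell. The one that rose was the receptor Tl, named here after its values were seen, with 87.7 and 79.3 CPM in WT, 80.0 and 97.9 CPM under M1BP RNAi, 80.2 and 70.6 CPM with ZKSCAN3 alone and 241 and 316 CPM in M1BP RNAi + ZKSCAN3 (log2 fold change 1.74, SE 0.20, FDR 0.0115, edgeR). Myd88, the adaptor, fell by 0.67 on the log2 scale (FDR 0.0472, edgeR). The transcripts of cact, itself a Toll target, stood at 62.0 and 60.9 CPM in WT, 85.9 and 84.1 CPM in M1BP RNAi and 83.9 and 104 CPM in M1BP RNAi + ZKSCAN3, which did not pass the threshold (FDR 0.110 and 0.0714 against WT, edgeR). At L3W 7 of these 9 genes rose and 0 fell, with Dif going from 7.78 and 6.17 to 36.9 and 39.3 CPM and Pli, a Pelle-binding ubiquitin ligase, from 12 and 14.8 to 210 and 211 CPM, while the Bomanin sum stayed below 1 CPM. Of the 10 extracellular components 6 rose and 3 fell at L3W: SPE fell by 2.36 on the log2 scale, spz by 1.61 and GNBP1 by 1.19 (FDR 6.64e-04, 8.49e-04 and 0.00327, edgeR). These counts stand beside 23.3% of all genes higher at that threshold, and 5146 of the 10720 genes tested passed it in either direction.

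Targets of the Imd pathway, which answers Gram-negative bacteria, did not share the rise over WT. Of 10 tested, 0 rose in M1BP RNAi or in M1BP RNAi + ZKSCAN3 against WT at an FDR of 0.05; 3 fell in M1BP RNAi, namely the attacins AttA (log2 −3.77) and AttB (log2 −2.02) and the recognition protein PGRP-SD (log2 −1.16). The list medians were −1.12 and −0.75. All 10 tested are given for M1BP RNAi + ZKSCAN3 against M1BP RNAi, named after their values were seen. AttA (log2 1.94), AttC (1.63), DptB (1.47), PGRP-SB1 (1.19), DptA (1.08), AttB (1.03) and PGRP-SD (0.79) were higher. CecC (−0.07), pirk (−0.86) and Dro (−1.65) were lower. AttA, AttB, AttC, PGRP-SB1 and PGRP-SD had an unadjusted p under 0.05, beside 8.97% of all genes higher, and none passed an FDR of 0.05 (edgeR). At L3W 5 of 13 tested rose, beside 23.3% of all genes, and 1, PGRP-SD, fell by 0.32 on the log2 scale (FDR 0.0377, edgeR). Those that rose include PGRP-SB1, from 5.96 and 11 to 101 and 101 CPM, and the diptericin DptA, from 4.07 and 0.502 to 49.7 and 27.7 CPM. Of the 3 tested Turandot stress peptides, 0 passed in M1BP RNAi and 1, TotC, rose in M1BP RNAi + ZKSCAN3 against WT (log2 2.85, FDR 0.0485, edgeR).

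The 5 genes whose pattern over the 8 male libraries was most like the mean of the 10 members, by Pearson correlation of log2 CPM among 8595 candidates, were FBgn0283462 (r = 0.994), BaraA1 (0.993), CG5646 (0.989), Las (0.985) and Drsl5 (0.985). These correlations are a description over libraries of 4 genotypes and carry no test. FBgn0283462 went from 0.236 and 0.130 CPM in WT to 1.26 and 1.19 CPM in M1BP RNAi and 16.9 and 16.2 CPM in M1BP RNAi + ZKSCAN3. Drsl5, a relative of drosomycin, went from 0.531 and 0.471 to 3.04 and 2.86 and to 110 and 172 CPM. Las, lipoic acid synthase, had the same order over a narrow range, from 18.8 and 19.2 CPM in WT to 29.0 and 33.6 CPM in M1BP RNAi + ZKSCAN3. Within the family each member correlated with the mean of the other 9 at 0.847 (BomS1) to 0.992 (BomT2).

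Markers of other tissues moved with the genotypes as well. The summed level of 9 salivary gland markers was 13.8 and 6.79 CPM in WT, 575 and 33.8 CPM under M1BP RNAi, 15.2 and 28.4 CPM with ZKSCAN3 alone and 524 and 709 CPM in M1BP RNAi + ZKSCAN3. M1BP RNAi replicate 1 exceeded replicate 2 by far in these markers, while the Bomanin sum was 19.3 and 18.5 CPM in the same libraries, and L3F female replicate 2 held 889 CPM of them with a Bomanin sum of 0.273 CPM. The 10 testis markers summed to 81.2 CPM in M1BP RNAi replicate 1 and to 0.617 to 14.7 CPM in the other male libraries. The 9 hemocyte markers, from a cell type in which Toll is also active, summed to 1153 and 1436 CPM in WT, 1536 and 1009 CPM in M1BP RNAi and 209 and 103 CPM in M1BP RNAi + ZKSCAN3. Most of the WT sum was Pxn, a peroxidasin, with 958 and 1148 CPM, and the other markers did not follow it: in M1BP RNAi 8 of the 9 stood above WT, and He and lz passed an FDR of 0.05 (list median 2.02 on the log2 scale, 2 rose and 0 fell). In M1BP RNAi + ZKSCAN3 against WT the list median was −0.99, He rose and Pxn fell. The prophenoloxidase genes PPO1 and PPO2 of crystal cells (like Pxn, named after their values were seen) were lower without passing (FDR 0.264 and 0.318, edgeR). PPO1 was at 32 and 67.2 CPM in WT, 452 and 256 CPM in M1BP RNAi and 19.5 and 2.46 CPM in M1BP RNAi + ZKSCAN3. PPO2 was at 37.3 and 84.9 CPM, 628 and 323 CPM, and 28.3 and 4.09 CPM in the same genotypes. The 8 midgut markers summed to 85.7 to 550 CPM and the 8 muscle markers to 65.9 to 438 CPM in the males, with muscle lower in both RNAi genotypes (65.9 to 145 CPM) than in WT and ZKSCAN3 (322 to 438 CPM). Every hemocyte and muscle marker had reads in all male libraries, while up to 2 salivary gland markers, 2 midgut markers and 3 testis markers were at 0 in a male library. The fat body markers themselves summed to 396725 and 433339 CPM in WT, 238771 and 301711 CPM in M1BP RNAi and 286584 and 187332 CPM in M1BP RNAi + ZKSCAN3. Beyond these levels, the part of other tissues in the Bomanin levels was not tested.

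Binding in S2 cells and promoter sequence are data other than the RNA levels used to choose the members. Among 8991 ZKSCAN3 peaks none lay within 500 bases of the start of any of the 10 members, against 47.4% of all 17307 genes on the main chromosome arms. Among 8745 ZKSCAN4 peaks the count was again 0 of 10, against 30.9% of all genes. As 9 of the genes share a single cluster, these are in effect observations at 2 loci. The peaks are from S2 cells, so the absence of a peak says nothing about binding in the fat body. The nearest ZKSCAN3 peak to the cluster was at chr2R:18399246-18399983, 8.62 kb from the start of BomS6 and 17.4 kb from that of BomT1, and its score exceeded that of 84.8% of the ZKSCAN3 peaks. The nearest to BomT3 was 7.58 kb away, with a score above 23.3% of peaks. The nearest ZKSCAN4 peak was 8.65 kb from BomS6 and 24.2 kb from BomT3.

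Motifs were searched on both strands from 250 bases before to 50 bases after each RefSeq start, for all 10 members and for 13921 protein-coding genes. The core of Motif 1, the element bound by M1BP (GGTCACACT), was in 0 of 10 members and in 6.06% of all promoters. The general NF-κB form GGGNNNNCC was in 3 members, BomS3, BomT1 and BomBc1, and in 13.3% of all promoters, and the form GGGAAANNC was in 2 members, BomS3 and BomS5, and in 4.86% of all promoters. The match of both forms at 22 bases before the start of BomS3 is the same stretch. The GATA type motif GATAAG was in 4 members, BomS1, BomS5, BomT1 and BomT3, against 19.0% of all promoters, and TATAAA was in 6 members against 45.8%. In the printed sequences, BomT3 has the GATA type match at 62 bases before its start and no match to either NF-κB form searched. BomBc3 has the NF-κB type match at 62 bases before its own start and no GATA type match. NF-κB forms of other spacing were not searched, so this difference holds for these forms only. The printed BomT3 sequence does hold the stretch gggcaattccc, left in lower case. It has the G and C ends of the general form at a wider spacing. The windows therefore do not separate BomT3 from BomBc3 by NF-κB type sequence in general. A match is a stretch of letters only, and its absence from this window says nothing about binding.

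**Figure D5:**
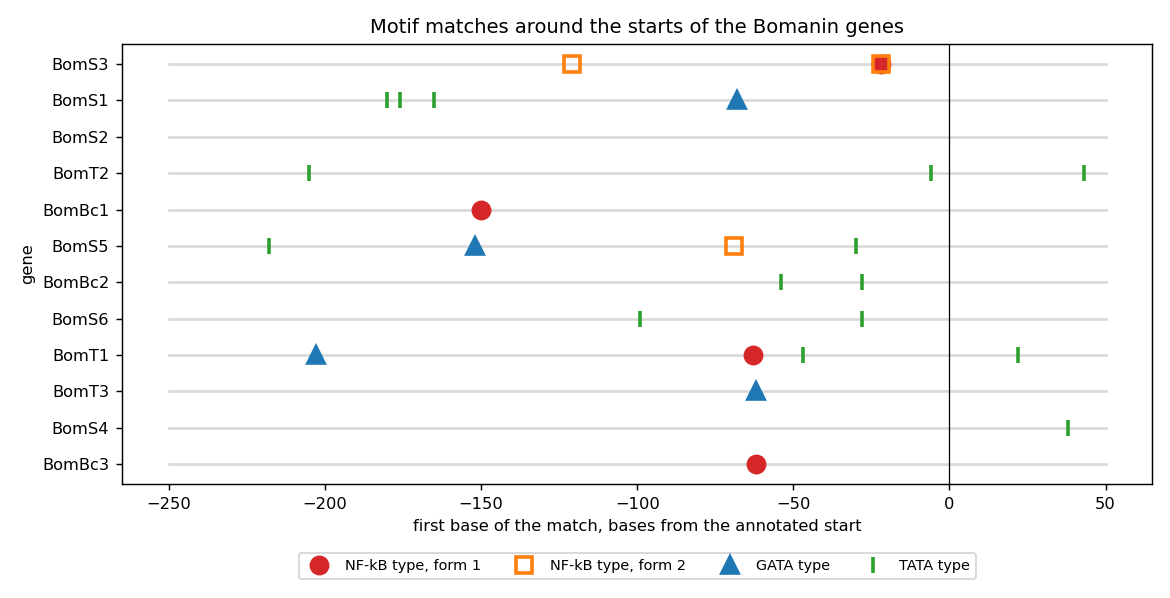
Matches to the NF-κB type (form 1 GGGNNNNCC, form 2 GGGAAANNC), GATA type and TATA type motifs on either strand from 250 bases before to 50 bases after the annotated start, for the 10 members ordered by their TPM in M1BP RNAi + ZKSCAN3 and for BomS4 and BomBc3. Each symbol is the first base of a match; BomS3, the most abundant member, has NF-κB type matches at −121 and −22, and BomS2 has no match to any of these motifs.

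The encoded peptides, translated from the RefSeq coding sequences, were 39 to 45 residues long for the short members, 63, 76 and 117 for BomT1, BomT2 and BomT3, and 117 and 154 for BomBc1 and BomBc2. A cysteine pair spaced by 2 residues occurred once in each short and tailed member and 2 times in each bicipital member. Over the 45 pairs of members the identity in global alignments was 9.23% to 88.9% with a median of 22.4%, and BomS1 and BomS2 formed the most alike pair, with 40 of 45 residues identical. Their transcripts shared at most 24 bases without a mismatch, the longest such stretch in any pair of members. The most alike peptides thus came from genes whose ratios in M1BP RNAi stood far apart, with BomS2 at 46.6 and BomS1 at 0.723 of WT in CPM.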

How the data were processed

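The members and gene lists were chosen with earlier results of these data known. The deposited counts are raw: the authors aligned reads to dm6 with Subread (unique alignments only) and counted them over exons (FlyBase r6.19) with featureCounts 1.6.1, without strand, with a read over several genes counted for each. The exon length of a gene (column Length) was deposited beside the counts. Peaks were called by the authors with MACS2 and merged over replicates, with a deposited score per peak; the meaning of the score is not given in the sources used here. Deposited tables of the authors' own comparisons, which hold log2 fold changes and p-values, were not used. Groups follow the titles, and the replicates are separate RNA preparations. The p-values rest on the spread between replicate libraries, pooled over the groups of a fit and moderated over the genes tested.

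Counts were analysed with edgeR 4.0.16 in R 4.3.3 (TMM scaling, genes kept by filterByExpr, the quasi-likelihood test and adjustment after Benjamini-Hochberg), the 8 male and 4 female libraries apart, with 11723 and 10720 genes tested. The common biological coefficient of variation was 0.462 and 0.351. DESeq2 1.42.0 was an alternative. Ratios use pooled counts over the summed scaled library sizes with exact binomial 95% intervals, or a limit of 3 counts over a group at 0. Named genes are all members, listed genes at an FDR under 0.05 in M1BP RNAi against WT or L3W against L3F, Drs, Mtk, M1BP, and the 5 most alike genes with a mean of at least 1 CPM (0.1 CPM was added before taking logs). Of 17494 gene IDs, 17358 had a symbol. Alternatives were DESeq2, its size factors, no filter on low counts, an FDR of 0.05, a replicate block, left-out libraries, TPM for sums, and for peaks a 1000 base window or higher scores. Peptides were aligned with Biopython 1.88.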

Additional observations from a re-analysis of the deposited data

How the results depend on the processing

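At an FDR of 0.001 edgeR called 0 of 10 members in each of the 6 male comparisons, and DESeq2 with all male libraries called 4 in M1BP RNAi against WT, 7 in M1BP RNAi + ZKSCAN3 against WT, 3 against M1BP RNAi and 6 against ZKSCAN3. DESeq2 with only the 2 groups compared called 2 (of 6 tested), 8, 6 and 7, beside 6.89%, 3.54%, 0.945% and 2.12% of all genes called higher. At an FDR of 0.05 edgeR called 4, 7, 1 and 5. With all genes of at least 1 count, 1 member (BomS2) passed 0.001 in M1BP RNAi + ZKSCAN3 against WT and 1 against ZKSCAN3. Of all 16082 genes, 5 and 4 passed there in either direction. The cause of these differences between tools was not tested. The median of ZKSCAN3 against WT (0.66) turned to −0.62 in DESeq2 with only the 2 groups, where 3 members were tested, and ran from −0.93 (without ZKSCAN3 replicate 2) to 1.87 with a library left out. The other medians with a library left out were 3.48 to 5.36 for M1BP RNAi and 7.26 to 7.83 for M1BP RNAi + ZKSCAN3 against WT, 3.31 to 3.55 against M1BP RNAi, 5.43 to 8.48 against ZKSCAN3 and 2.20 to 4.47 for the interaction; the counts at 0.001 stayed at 0 there. With TPM in place of CPM the sum was 103.5-fold in M1BP RNAi + ZKSCAN3 over WT in place of 87.0-fold. Peaks stayed at 0 of 10 members with a 1000 base window or with higher-scoring peaks alone.

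The differences between replicates correlated over genes from −0.22 (M1BP RNAi with ZKSCAN3) to 0.45 (WT with M1BP RNAi). The labels give a replicate number and no batch, and whether same-numbered libraries were prepared together was not tested. With the replicate block 4 members were called at 0.05 in M1BP RNAi against WT, 6 in M1BP RNAi + ZKSCAN3 against WT, 0 against M1BP RNAi and 5 against ZKSCAN3, beside 5.48%, 4.20%, 0.0853% and 4.46% of all genes called higher, and 0 at 0.001 in each. The reading of every fit at 0.05 was chosen after seeing the data. With a library left out, which leaves a group with a single library, no value called at 0.05 changed sign. Over all members and comparisons, more of the calls at 0.05 were lost in these fits than kept. Depth limits BomT1, BomT3, BomS5, BomS6 and all female levels, which rest on few reads.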
